A study of Homo sapiens with 14 samples.

Results

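The TNF superfamily, its receptors and the TRAF adaptors were examined as binding targets of SKI and RUNX1 in the leukaemia line HL60, which derives from human acute myeloid leukaemia. Members were the protein-coding genes named as nearest transcript in any of 4 ChIP-seq peak lists whose symbol starts with TNFRSF, with TNFSF, or with TRAF followed by a digit. There were 34 members among 13808 protein-coding genes named in the lists, and the other 13774 served as background. By symbol they comprised 9 ligand genes, 15 receptor genes, 7 TRAF adaptor genes and 3 genes of TRAF3-interacting proteins, which the spelling of the symbol also takes. A RefSeq gene table holds 43 protein-coding symbols that fit the same spelling, and 9 of them (TNFRSF6B, TNFRSF10A, TNFRSF11B, TNFRSF13B, TNFRSF17, TNFRSF25, TNFSF12, TNFSF12-TNFSF13 and TNFSF15) were not named as protein-coding genes in the lists used here.

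SKI was precipitated from unmodified (WT) HL60 cells in 2 samples, replicates 1 and 2, and from HL60 cells labelled as CRISPR/Cas9 control in 1 sample. RUNX1 was precipitated from unmodified cells in 1 sample. Cells of every sample were cultured in RPMI with serum, and no treatment is named. The labels do not say whether replicates came from separate cultures, or whether the control cells are 1 clone, and of 14 samples 10 were not analysed here. The lists held 54841, 14431 and 14019 SKI peaks and 5581 RUNX1 peaks, with medians of 97, 56, 61 and 56 sequence tags per peak. Total library depth is not given in the sources used here. The list of replicate 1 stands apart by its length, so the counts of shared and joint sites are also given without it. Peak lists hold no expression values, so the cell type was not checked against markers.

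Ligands of the TNF superfamily are mostly trimeric membrane proteins that cluster their receptors on a neighbouring or on the same cell. Receptors with a cytoplasmic death domain can start apoptosis, decoy receptors bind ligand without passing on a full signal, and most others recruit TRAF proteins, adaptors that lead to NF-kappaB and MAP kinases. SKI is a corepressor that reaches DNA through partners such as SMAD proteins, and RUNX1 is a DNA-binding factor of blood cell formation.

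The promoters of the ligand gene TNFSF14 (LIGHT), its receptor gene TNFRSF14 (HVEM) and the adaptor-binding gene TRAF3IP3 are shown because SKI peaks of all 3 lists lay at their TSSs and RUNX1 peaks lay at only some of them. They are RefSeq windows of 300 bases, 250 before and 50 after the annotated start, on GRCh38.p14, whereas all peak positions are on hg19, so the peaks cannot be placed inside the windows. In the first and second, capitals mark matches to the kappaB motif, the site bound by NF-kappaB proteins. In the other windows, both of TRAF3IP3, capitals mark the RUNX core, TGTGGT or TGCGGT on either strand.
TNFRSF14 (chr1:2556121-2556420, plus strand): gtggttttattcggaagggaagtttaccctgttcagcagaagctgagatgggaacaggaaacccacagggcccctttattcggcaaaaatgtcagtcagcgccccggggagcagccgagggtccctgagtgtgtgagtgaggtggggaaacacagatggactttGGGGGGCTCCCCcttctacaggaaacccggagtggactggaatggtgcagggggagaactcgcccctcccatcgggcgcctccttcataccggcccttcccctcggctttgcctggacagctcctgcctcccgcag
TNFSF14 (chr19:6670109-6670408, minus strand): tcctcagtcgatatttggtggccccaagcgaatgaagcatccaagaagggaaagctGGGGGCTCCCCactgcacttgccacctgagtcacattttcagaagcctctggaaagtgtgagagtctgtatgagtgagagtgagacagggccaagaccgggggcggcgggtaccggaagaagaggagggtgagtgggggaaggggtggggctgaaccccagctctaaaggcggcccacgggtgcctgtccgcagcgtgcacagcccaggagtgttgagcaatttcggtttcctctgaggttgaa
TRAF3IP3 upstream start (chr1:209755803-209756102, plus strand): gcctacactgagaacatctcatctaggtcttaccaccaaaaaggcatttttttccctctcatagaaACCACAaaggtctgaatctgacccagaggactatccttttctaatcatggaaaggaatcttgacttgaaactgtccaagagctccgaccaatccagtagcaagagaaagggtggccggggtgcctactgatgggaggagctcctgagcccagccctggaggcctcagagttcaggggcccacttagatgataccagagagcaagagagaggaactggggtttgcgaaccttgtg
TRAF3IP3 downstream start (chr1:209768315-209768614, plus strand): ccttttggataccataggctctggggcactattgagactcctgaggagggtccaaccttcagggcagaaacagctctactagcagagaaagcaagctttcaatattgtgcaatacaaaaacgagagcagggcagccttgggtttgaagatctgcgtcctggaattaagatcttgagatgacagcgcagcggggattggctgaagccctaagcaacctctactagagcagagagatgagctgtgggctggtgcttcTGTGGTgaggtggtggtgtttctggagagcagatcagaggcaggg
The windows of TNFRSF14 and TNFSF14 share GGGGGCTCCCC, a run of 11 letters that 36 of the 35116 RefSeq promoters of the table hold (0.103%). This run was picked as the longest one common to these windows. How often other windows share some run of that length was not counted, so the share says nothing about a link between the genes. Overlapping kappaB matches began 86, 85 and 84 bases before the start in TNFRSF14, and 194 and 193 bases before it in TNFSF14. Neither window holds the RUNX core, which 19.6% of all windows hold, and 11.3% hold the kappaB motif. Both TRAF3IP3 windows shown hold 1 RUNX core, 184 bases before the upstream start and 5 bases after the downstream one, and a further window between them holds one 91 bases before its start. Promoter windows were in the table for 27 of the 34 members (40 windows). The SMAD box CAGAC, on either strand, is in 45.3% of all windows, in the TRAF3IP3 upstream window and in that of TNFSF14. By class, 1 of 2 genes with a joint promoter site and a window held the RUNX core in at least 1 window. So did 2 of 4 with a shared promoter site and no RUNX1 peak there, and 7 of 21 with no shared promoter site. TRAF1, among those 4, holds it in chr9:120926747-120927046 and not in chr9:120929122-120929421, so the core need not be at the shared site. Genes with more windows have more chances of a match, so these gene counts are not comparable with the 19.6% of windows. A match describes letters only, and no match says nothing about the factor.

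SKI peaks of replicate 1 lay nearest to all 34 members (98.0% of other protein-coding genes), those of replicate 2 to 25 members (45.9%) and those of the control cells to 21 (44.4%). A gene enters either group only by a peak in at least 1 of the 4 lists, and replicate 1 is by far the longest. The shares of replicate 1 were therefore largely fixed by the choice of genes and are no result about binding. The share of members was 73.5% (95% Wilson interval 56.9 to 85.4, counting error only) in replicate 2 and 61.8% (45.0 to 76.1) in the control cells. The interval of replicate 2 lay above the background, and that of the control cells only just, from 45.0 against 44.4%. A SKI site was counted as shared when peaks of all 3 SKI lists joined in it by at least 1 bp, and as joint when it also overlapped a RUNX1 peak. Shared sites lay at 16 members, or 47.1% (31.5 to 63.3), against 35.9% of other genes. RUNX1 peaks lay at 12 members, or 35.3% (21.5 to 52.1), against 17.0%. Shared sites centred within 1000 bp of a TSS lay at 8 members, or 23.5% (12.4 to 40.0), against 26.1%. Joint sites also lay at 8 members, or 23.5% (12.4 to 40.0), against 11.0%. The intervals for shared sites hold the background value, and those for RUNX1 peaks and joint sites lie above it. No test was made, since each list is a single sample and the members were chosen with earlier results of these data known. For the same reason an interval above the background is a description here and no evidence of enrichment. When replicate 1 was not required, 17 members had a shared site and 9 a joint one. When the control cells were not required, 25 had a shared site and 10 a joint one, and with lists cut to the same length of 5581 peaks the counts were 6 and 4. The shares of other genes under these settings are not given here, so whether the differences from background hold under them was not tested.

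Members had a median of 3 SKI sites and other genes 2, with means of 3.88 and 2.54. Taken per site, a RUNX1 peak overlapped 10.6% (6.42 to 17.0) of the 132 SKI sites of members and 8.67% (8.38 to 8.97) of the 34645 of other genes, so the per-site interval holds the background. The part of the number of sites in the gene counts was not tested.

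**Figure D1:**
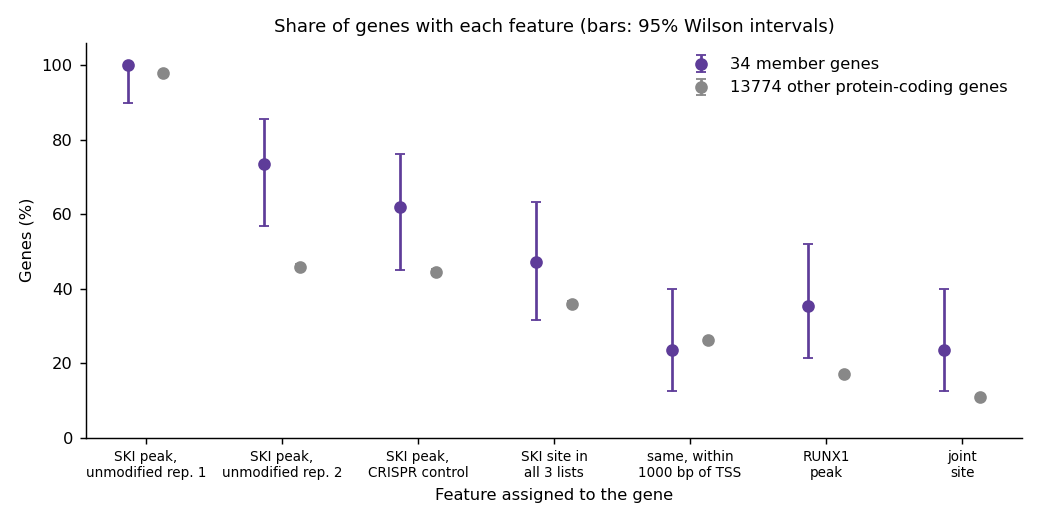
Percent of the 34 member genes and of the 13774 other protein-coding genes (y axis) that had each kind of peak or site (x axis). Points are shares and bars 95% Wilson intervals. Members were chosen with earlier results of these data known, so the intervals are no test of enrichment. For the RUNX1 peak the members' interval of 21.5 to 52.1% lies above the 17.0% of other genes, whereas for a SKI site in all 3 lists within 1000 bp of a TSS the members' share of 23.5% has an interval that holds the 26.1% of other genes.

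Shared SKI sites of the members were spread between promoters and distant positions. They numbered 21 (33 without replicate 2, 34 without the control cells), of which 9 (42.9%, 24.5 to 63.5) were centred within 1000 bp of a listed TSS, against 57.4% of the shared sites of other genes. At 8 of the 21 the centre lay over 10000 bp from the TSS. In the authors' position column the class tss took 36.2%, 42.9% and 36.1% of the members' SKI peaks in replicate 1, replicate 2 and control cells, against 44.5%, 61.9% and 58.2% of the peaks of other protein-coding genes. The intergenic class took 26.9%, 16.7% and 38.9% of members' peaks, against 14.0%, 9.52% and 9.99%. The interval for members lay above the background in replicate 1 (20.0 to 35.1) and in control cells (24.8 to 55.1), and held it in replicate 2 (8.32 to 30.6). For RUNX1 the intergenic class took 7 of the 16 peaks of members (43.75%, 23.1 to 66.8), against 17.2%. These intervals count every peak or site as independent, although several often belong to the same gene. They may therefore be too narrow for a statement about the genes, and like those of the gene counts they are no test of enrichment.

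The SKI peaks of members were about as strong as those of other genes. Median tags per peak of members were 127, 53.5 and 53.5 in the 3 SKI lists and 62.5 for RUNX1, against 110, 56, 60 and 55 for other protein-coding genes. Fold enrichment, the authors' ratio of ChIP to background for a peak, was used within a list only. Its median for members was 20.4, 11.5 and 10.5 for SKI, against 18.9, 9.905 and 11.1. For RUNX1 the median was 26.0 for the 16 peaks of members and 18.6 for the peaks of other genes, and 13 of the 16 were above the median of the RUNX1 list.

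**Figure D2:**
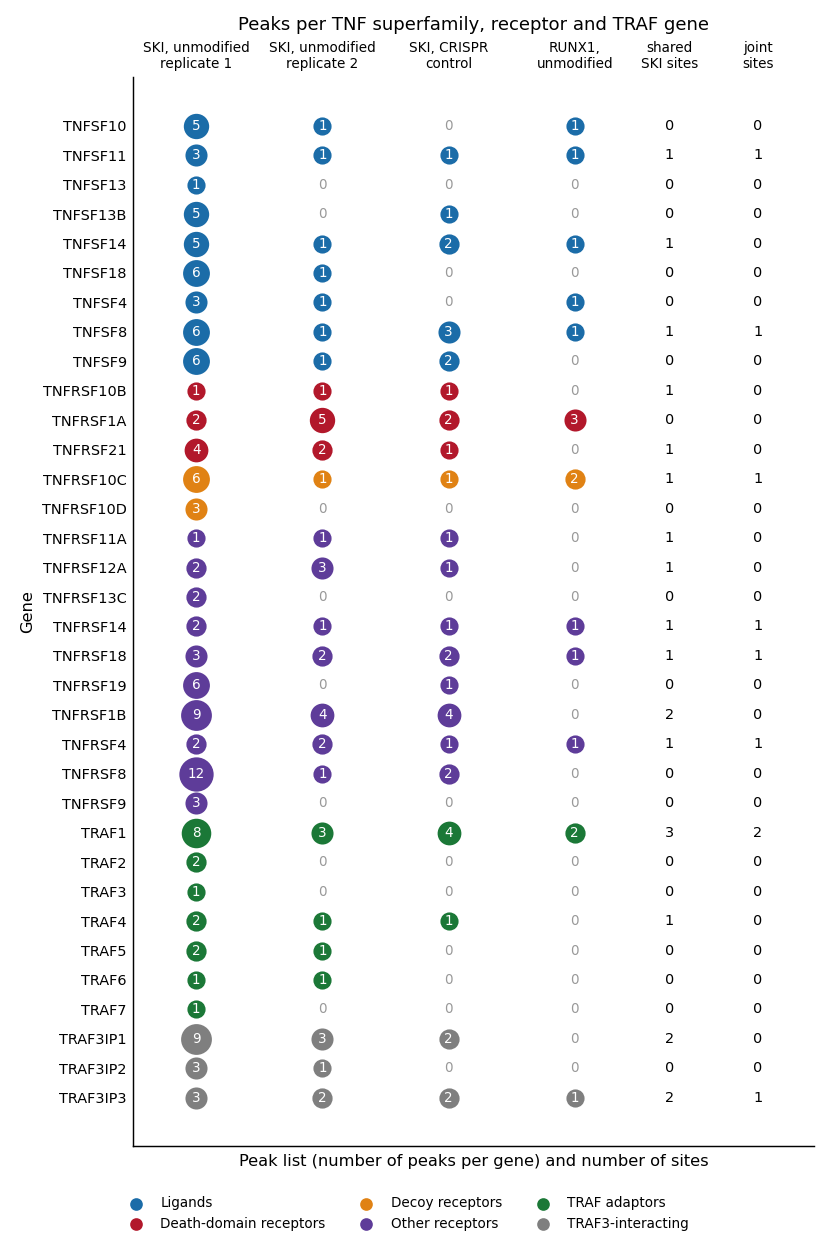
Number of peaks per member gene (rows, coloured by role) in each of the 4 lists, with the number of shared SKI sites and of joint sites in the right columns. Larger circles hold more peaks. The list of unmodified cells, replicate 1, has a peak at every gene and up to 12 at TNFRSF8, whereas RUNX1 peaks stand at 12 genes. Genes were chosen by having a peak in at least 1 of the lists, of which replicate 1 is the longest.

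Among the ligand genes, shared SKI sites lay at 3 of 9 and RUNX1 peaks at 5 of 9, against 35.9% and 17.0% of other genes. In 4 of those 5 genes the RUNX1 peak was intergenic, against 17.2% of the RUNX1 peaks of other genes. Roles hold few genes, and differences between roles were not tested. TNFSF11 encodes RANKL, the ligand that drives osteoclast formation. Its joint site (chr13:43060857-43061542) was intergenic and centred 75666.5 bp upstream, with 203, 43 and 105 SKI tags in replicate 1, replicate 2 and control cells and 67 RUNX1 tags. SKI fold enrichments there were 69.7, 19.6 and 24.3, at the 93.3, 84.0 and 85.3 percentiles of their lists, so it was among the stronger peaks of each SKI list.

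TNFSF8 encodes CD30 ligand. At its joint site (chr9:117720199-117721519), intergenic and centred 28162 bp upstream, the SKI lists had 391, 43 and 90 tags and the RUNX1 list 48. The RUNX1 fold enrichment of 10.4 was at the 17.4 percentile of that list and the lowest of the members' RUNX1 peaks, although SKI fold enrichments of 50.9, 11.0 and 14.5 were above the median of every list. Between it and the gene lay 2 intergenic SKI sites that were in replicate 1 and the control cells and had no RUNX1 peak.

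TNFSF14, whose product LIGHT activates T cells through HVEM, had its shared site at the TSS (chr19:6669480-6670571). SKI tags were 452, 77 and 46 and fold enrichments 99.6, 17.5 and 4.92. The value of 99.6 was the highest of all members in replicate 1, while 4.92 was at the 3.10 percentile of the control list, so the lists ordered this site differently. The RUNX1 peak of TNFSF14 (48 tags, fold enrichment 19.6) lay 28115 bp downstream of the TSS within an intergenic SKI site of replicate 1 (199 tags) and control cells (56 tags).

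TNFSF10 (TRAIL, which triggers apoptosis through death receptors) and TNFSF4 (OX40 ligand, a costimulator of T cells) each had a RUNX1 peak in a SKI site of the unmodified cells without a control-cell peak. At TNFSF10 the site (chr3:172247881-172248989, centred 7131 bp upstream) had 307 and 34 SKI tags and 73 RUNX1 tags. At TNFSF4 the site (chr1:173175755-173176947) lay at a TSS, with 222 and 37 SKI tags and 39 RUNX1 tags. Both SKI peaks of replicate 2 were near its lowest tag count of 26, and TNFSF10 also had a promoter peak in replicate 1 alone (140 tags). No RUNX1 peak and no shared site lay at TNFSF9, TNFSF13, TNFSF13B or TNFSF18. Of these TNFSF9, the ligand of 4-1BB, had 6 SKI sites, 3 of them in 2 lists, and TNFSF13, which encodes APRIL, had 1 promoter site in replicate 1 (355 tags). TNFSF13B, the gene of the B cell factor BAFF, had 5 SKI sites and TNFSF18, the ligand of GITR, had 6, with 1 site in 2 lists at each.

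Among the receptor genes, shared SKI sites lay at 9 of 15, RUNX1 peaks at 5 and joint sites at 4, against 35.9%, 17.0% and 11.0% of other genes. TNFRSF14, the receptor of LIGHT, had a joint site at its TSS (chr1:2486856-2488820). SKI tags were 679, 113 and 153 and fold enrichments 51.8, 11.8 and 28.2, and the RUNX1 peak (chr1:2487355-2487851) had 66 tags and a fold enrichment of 31.6. The RUNX1 summit was 39, 44 and 86 bp from the nearest SKI summit of each list.

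TNFRSF18 (GITR) and TNFRSF4 (OX40), costimulatory receptors of T cells, are neighbours whose closest listed TSSs are 6804 bp apart, and each had its own joint site. At TNFRSF18 the site (chr1:1142986-1145268) was upstream of the gene, and the strongest SKI peaks had 927, 84 and 101 tags and fold enrichments of 95.6, 18.5 and 22.1. The RUNX1 summit there (66 tags, fold enrichment 28.0) was 0, 0 and 2 bp from a SKI summit.

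At TNFRSF4 the joint site (chr1:1147992-1149285) had 569, 118 and 100 tags in the strongest SKI peaks and 55 in the RUNX1 peak, with fold enrichments of 48.4, 15.4, 11.1 and 29.8. Here the SKI summits of replicate 1 and control cells were 492 and 541 bp from the RUNX1 summit. Replicate 2 split the region into separate peaks, the weaker of which (51 tags, fold enrichment 5.28) had its summit 25 bp from that of RUNX1. TNFRSF4 is the only member whose joint call was lost when summits had to lie within 250 bp, which left 7 members.

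The decoy receptor gene TNFRSF10C, whose product binds TRAIL without a death domain, held the RUNX1 peak of highest fold enrichment among the members, though not of most tags. That peak had 56 tags and a fold enrichment of 61.2, rank 272 of 5581, in an intergenic joint site (chr8:22986886-22987643) with 258, 59 and 48 SKI tags. A second RUNX1 peak (88 tags, fold enrichment 46.9) lay at another listed TSS of TNFRSF10C in a SKI site of replicate 1 only (316 tags). The neighbouring decoy gene TNFRSF10D had 3 SKI sites, all in replicate 1 only.

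The death receptor gene TNFRSF10B of the same cluster had a shared promoter site (chr8:22924886-22927430; 538, 41 and 36 tags) and no RUNX1 peak. TNFRSF21 (death receptor DR6) had a shared site in an intron 67104.5 bp from the TSS (chr6:47209994-47211027; 330, 50 and 43 tags), while its promoter site was in the unmodified lists only (209 and 41 tags). So each of these receptors had a single shared site.

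TNFRSF1A encodes the main death-domain receptor of TNF itself and showed the densest RUNX1 binding of the members. In an intron, 3525 to 6535 bp downstream of the upstream TSS, 3 RUNX1 peaks of 44, 56 and 95 tags (fold enrichments 19.84, 23.3 and 27.3) lay in 1 SKI site (chr12:6444766-6447776). The control cells had 1 wide SKI peak there with 569 tags and a fold enrichment of 45.06, and replicate 2 had 4 peaks with 104, 114, 258 and 63 tags and a highest fold enrichment of 43.98. These were the highest values of any member in those lists, at the 97.5 percentile in replicate 2 and the 95.9 percentile in the control cells.

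Replicate 1 listed no SKI peak at this site, nor at the TNFRSF1A promoter (chr12:6450726-6451507), where replicate 2 had 117 tags and the control cells 65. It had 2 weak peaks elsewhere at TNFRSF1A, with 54 and 40 tags. Row numbers in the list of replicate 1 run to 75197, with 72.9% of them present, and 1 row number, between 14725 and 14727, is absent from the stretch of 11759 bp that holds both sites. Over all genes 241 SKI sites were in replicate 2 and the control cells but not in replicate 1, and at all 241 at least 1 row number was absent between the flanking peaks. Among all neighbouring peaks of replicate 1 a row number was absent between 23.9%, though these stretches were not matched for length. What the absent rows held, and the filter behind them, are not stated. At TNFRSF1A 1 absent row stands against 2 sites, so it could not hold a separate peak at each. TNFRSF1A therefore does not count as shared or joint here, and does once replicate 1 is not required.

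**Figure D3:**
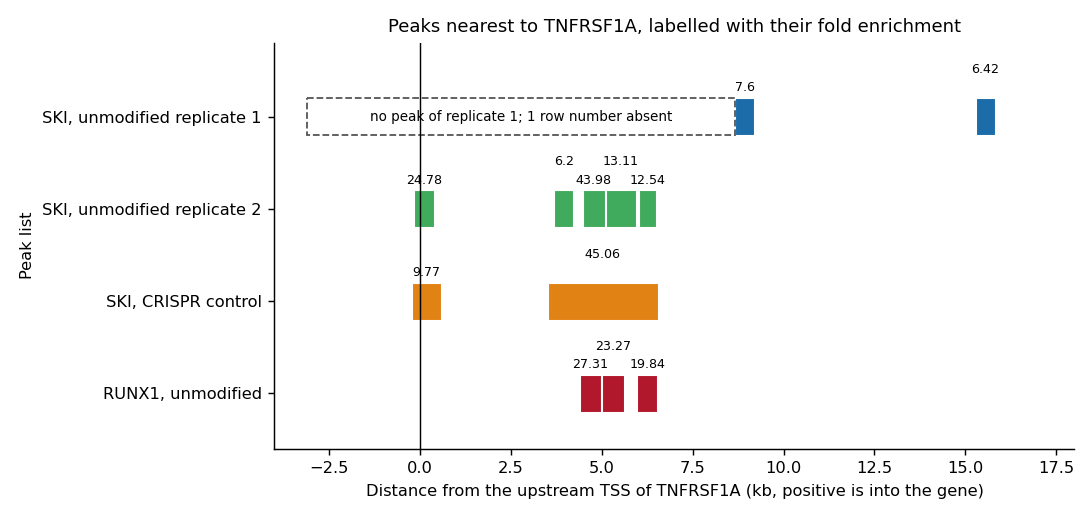
Peaks nearest to TNFRSF1A in each list (rows) against distance from its upstream TSS in kb (x axis), each labelled with its fold enrichment. The dashed box spans the stretch without a peak of replicate 1, from which 1 row number is absent. Peaks of replicate 2 (43.98 at the highest), the control cells (45.06) and RUNX1 (27.31) lie together within its span.

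The other receptor genes with shared sites had no RUNX1 peak. TNFRSF1B, the TNF receptor without a death domain, had 9 SKI sites, 2 of them shared. These were an intergenic one centred 16452 bp upstream (chr1:12209797-12211411; 527, 41 and 76 tags) and an intronic one (chr1:12256536-12257348; 305, 67 and 39 tags). Its promoter site was in replicate 1 only (153 tags, fold enrichment 8.20), so the shared binding at this gene was away from the upstream TSS.

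TNFRSF12A, the TWEAK receptor Fn14, had a shared site without RUNX1 that was 4856 bp wide and held listed TSSs of the gene (chr16:3069812-3074667). Its strongest peaks were of the class tss in all 3 lists, with the summit 134 bp from a listed TSS in the control cells. The centre of the site was 1864.5 bp away, so the site is not among the promoter sites counted above. Replicate 1 had 1568 tags there in 1 peak, the most of any member peak, replicate 2 had 3 peaks with 102, 52 and 74 tags, and the control cells had 198. TNFRSF11A, the gene of RANK, had a weaker shared promoter site (chr18:59991050-59993753), with fold enrichments of 16.0, 7.09 and 5.78 that were below the median of every list.

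TNFRSF8, the gene of the lymphoma marker CD30, had the most SKI sites of the members, 12, yet none was shared and none carried RUNX1. Of these 10 were in replicate 1 only, with 37 to 179 tags. An intronic site was also in replicate 2 (168 and 32 tags), and a site in the exon class was also in the control cells (664 tags in replicate 1). TNFRSF19 had 6 SKI sites with 1 in 2 lists, while TNFRSF9 with 3 and TNFRSF13C with 2 had them in replicate 1 only.

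**Figure D4:**
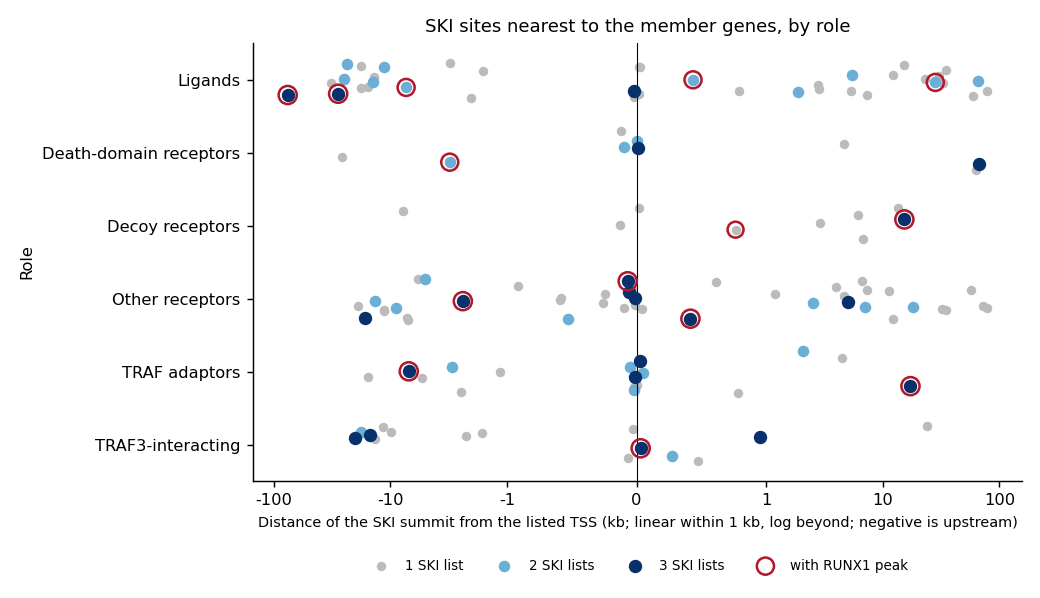
Distance of a SKI summit of each of the 132 SKI sites from its listed TSS (x axis in kb), by role of the gene (rows). The axis is linear near the TSS and logarithmic farther out. The summit is that of the strongest replicate 1 peak or, where there is none, of replicate 2 and then of the control cells. Sites are coloured by their number of SKI lists and ringed where a RUNX1 peak overlaps. Vertical spread within a row is only for legibility. The 14 ringed sites lie on both sides of the TSS, and 5 of the 9 joint ones are centred over 5000 bp from it.

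TRAF1, an adaptor without a RING domain that is itself an NF-kappaB target, had 8 SKI sites, 3 shared and 2 joint, the most of the TRAF genes. The joint site on the downstream side (chr9:123658962-123660284, intergenic, centred 17229 bp from the listed TSS) had 558, 118 and 116 SKI tags and 80 RUNX1 tags, with fold enrichments of 68.5, 21.1, 16.8 and 34.0. The joint site centred 6906 bp upstream (chr9:123697491-123699229) had 423, 44 and 102 SKI tags and 101 RUNX1 tags, the most of any RUNX1 peak of the members. The promoter site between them (chr9:123690626-123691932; 377, 59 and 65 tags) had no RUNX1 peak, and its fold enrichments of 3.56 and 5.09 in replicate 2 and control cells were at the 0.125 and 3.89 percentiles of those lists.

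For the other TRAF genes no RUNX1 peak was listed. TRAF4 had a shared promoter site (chr17:27069932-27071841) with 511, 58 and 44 tags and fold enrichments of 38.0, 9.12 and 8.05. TRAF6, the ubiquitin ligase shared with the interleukin-1 and Toll-like receptor pathways, had a promoter site in both unmodified lists (239 and 34 tags), and TRAF5 had an upstream site in both (74 and 37 tags). TRAF2 and TRAF3, which keep the kinase NIK at low levels, and TRAF7 had promoter peaks in replicate 1, with 354, 429 and 235 tags at the strongest. At TRAF2 and TRAF7 a peak of 1 further SKI list overlapped but was listed under MIR4479 and SNORD60.

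TRAF3IP3, which encodes a TRAF3-interacting protein of lymphoid cells, had shared SKI sites at 2 groups of TSSs. At the upstream one (chr1:209928962-209930579; 587, 99 and 78 SKI tags) a RUNX1 peak with 59 tags and a fold enrichment of 18.4 had its summit 9, 18 and 4 bp from those of SKI. At the downstream one (chr1:209940805-209943720; 1050, 60 and 67 SKI tags) no RUNX1 peak was listed. The listed TSSs lie 12510 bp apart on hg19 and the corresponding RefSeq starts 12512 bp apart on GRCh38.p14, and the windows of both starts hold a RUNX core.

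TRAF3IP1, a component of cilia, had 9 SKI sites without RUNX1, 2 of them shared and all but the promoter one intronic. The shared sites (chr2:239285390-239286127 and chr2:239290341-239292069) had 306, 33 and 40 and then 474, 40 and 48 tags. The tags of replicate 2 were near its lowest count of 26. TRAF3IP2, which encodes the interleukin-17 receptor adaptor Act1, had 3 sites and none shared.

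Over the 9 joint sites the median SKI fold enrichment was 68.5, 18.5 and 14.5 in the 3 lists, and over the 12 shared sites without RUNX1 it was 58.5, 9.445 and 11.9. The ranges overlapped in every list, from 34.1 to 95.6 and 16.0 to 99.6 in replicate 1, from 6.81 to 22.7 and 3.56 to 19.3 in replicate 2, and from 10.7 to 28.2 and 4.92 to 16.4 in control cells. A RUNX1 peak overlapped 42.9% (24.5 to 63.5) of the members' shared sites and 28.3% of those of other genes, so the interval holds the background. Within 1000 bp of a TSS the shares were 33.3% (12.1 to 64.6) and 16.2%, and farther away 50% (25.4 to 74.6) and 44.5%. All 16 RUNX1 peaks of members lay in a SKI peak of some list, as did 97.1% of those of other genes, and 9 of the 16 lay in a shared site (56.25%, against 58.6%). Of the 16, 5 were within 1000 bp of the listed TSS, 4 were 1000 to 5000 bp away and 7 farther. 

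**Figure D5:**
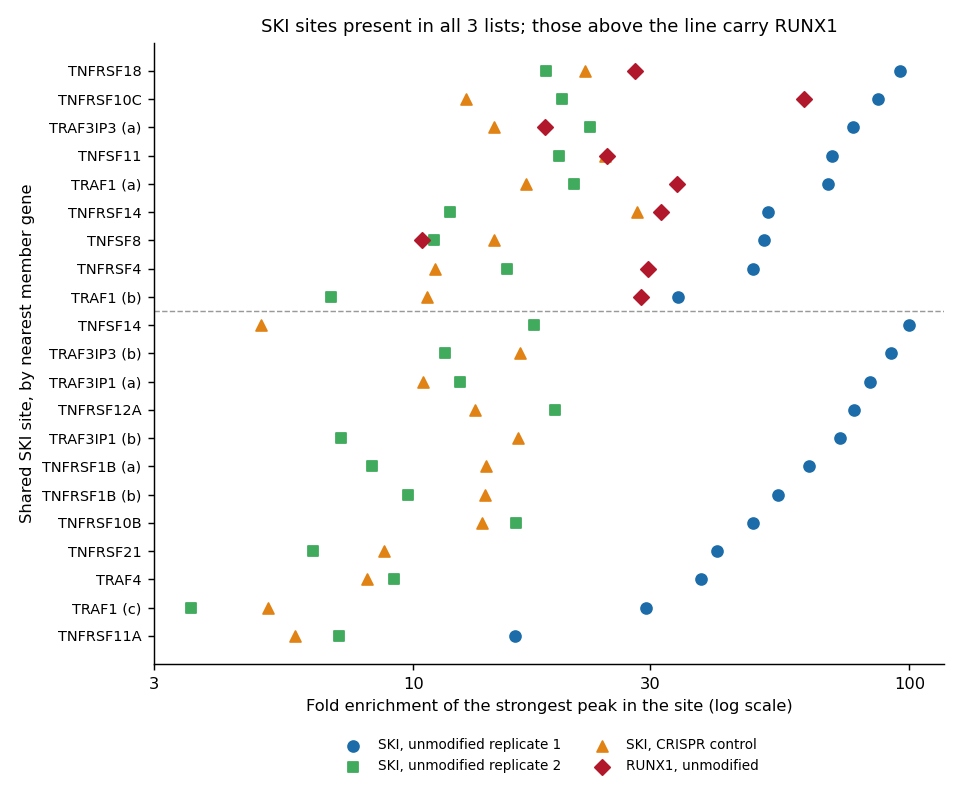
Fold enrichment (x axis, log scale) of the strongest peak of each list at the 21 SKI sites present in all 3 SKI lists, named by member gene, with letters where a gene has several. The 9 sites above the dashed line carry a RUNX1 peak (diamonds). Values of different lists are on unlike scales, and within each list those above and below the line overlap.

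Family members under other symbols and the signalling genes behind the receptors were taken from lists of names. Of 15 such ligand and receptor genes 11 were named in the files, 6 with a shared SKI site (TNF, LTA, FASLG, FAS, LTBR and RELT) and 2 (LTA and FASLG) with a RUNX1 peak and a joint site, against 35.9%, 17.0% and 11.0% of other genes. The TNF promoter site (chr6:31542859-31544536) had SKI fold enrichments of 25.65, 5.50 and 6.98, and that of FAS, the classical death receptor, 29.4, 6.0 and 4.98, with no RUNX1 peak at either. FASLG, the ligand of FAS, had a joint site centred 3746.5 bp from its TSS (SKI 36.1, 9.70 and 6.57; RUNX1 13.2). At LTA the joint site was assigned by a peak of replicate 1 alone, the peaks of the other lists being listed under other genes.

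Of 30 intracellular signalling genes 28 were named, 13 had a shared SKI site, 9 a RUNX1 peak and 6 a joint site, against 35.9%, 17.0% and 11.0% of other genes. The initiator caspase gene CASP8 (SKI fold enrichments 71.5, 41.7 and 19.0; RUNX1 13.8) and CFLAR, which encodes its inhibitor cFLIP (97.5, 28.3 and 40.3; RUNX1 32.0), had joint sites within 1000 bp of a TSS. FADD, the adaptor that recruits caspase-8 to death receptors, had a shared promoter site without RUNX1 (99.9, 15.05 and 22.1), as did MAP3K7, the gene of the kinase TAK1 (161.9, 22.8 and 27.5). TNFAIP3, the gene of the NF-kappaB feedback inhibitor A20, had a shared promoter site (36.5, 15.46 and 8.02) and a RUNX1 peak outside it. The kinase genes IKBKB, IKBKG and CHUK and the adaptor gene TRADD had no shared site.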

How the data were processed

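SKI and RUNX1 were mapped by ChIP-seq in HL60 cells, and 4 peak lists were used. The submitters' processing notes name MACS 1.4, Bowtie2, deepTools and bcl2fastq, without roles, and the builds GRCh37 and hg19. The control library of each ChIP is not given in the sources used here. Per the file headers, the deposited lists give each peak's −log10 p-value, its fold enrichment as a ratio, its count of tags, a position class and the nearest transcript with its signed distance. The −log10 p-values start at about 5.00 in every list, and the FDR values were left out because no source states their scale. Peaks were listed per sample.

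Members, gene lists and tests were chosen with earlier results of these data known. SKI peaks overlapping by at least 1 bp were joined, and a site went to every member named by one of its peaks. TSS positions came from the deposited distances. Genes were named by this rule: each member with its counts, with full values for joint sites, for the 6 members with a shared site and no RUNX1 peak whose worst fold enrichment rank over the SKI lists, which differ in length, was smallest, for RUNX1 peaks outside shared sites, and for the 3 members with most sites. No enrichment test was made. Shares carry 95% Wilson intervals, for counting error only, and peaks or sites of the same gene were counted as independent. The joining was tested on simulated peaks. Alternatives were a stricter threshold, omitting each SKI list in turn, lists cut to 1 common length, other distances, summits within 250 bp and leaving out the TRAF3-interacting genes. The tools were pandas 2.3.3, numpy 2.4.6, scipy 1.17.1 and matplotlib 3.10.9, run in Python 3.11.15.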

Additional observations from a re-analysis of the deposited data

How the results depend on the processing

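Of the values under the alternatives, 39 stayed within 1.5 times the reported count or within the 95% interval of the reported share or median, and 15 did not. Lists of equal length, which hold the 5581 peaks of highest −log10 p each, moved most: 6 members had a shared SKI site and 4 a joint one, 6 shared sites were left, 66.7% of them with RUNX1. With them 12, 9 and 9 members had a SKI peak in replicate 1, replicate 2 and control cells, and median tags were 563.5, 102 and 103.5. Within 10000 bp of the listed TSS 5 members had a joint site and 13 shared sites were left. When 1 SKI list was left out, 17 (without WT_SKI replicate 1) to 25 (without CTR_SKI replicate 1) members had a shared site, 9 to 10 a joint one, and the number of shared sites was 23 to 34 (33 without WT_SKI replicate 2). RUNX1 then overlapped 30.3% to 43.5% of them, and 33.3% to 47.8% were centred within 1000 bp of a TSS. All these values are of members only, without the background under the same setting. Tags per peak limit replicate 2 and control cells, where the median member peak had 53.5. No paired analysis was possible because, among the 4 lists used, only unmodified SKI has more than 1 replicate.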

Other observations

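Ligand and receptor genes that encode known partners were set side by side, in 10 pairs chosen with the values known. TNFSF10 stands in several of the pairs, and other gene pairs were not counted for comparison. Whether partners share binding more often than other genes was therefore not tested. Both partners had a RUNX1 peak in 3 pairs, namely TNFSF4 with TNFRSF4, TNFSF10 with TNFRSF10C, and TNFSF14 with TNFRSF14. Both had a shared SKI site in 2 pairs, TNFSF11 with TNFRSF11A and TNFSF14 with TNFRSF14. Neither kind of site was at either partner for TNFSF9 with TNFRSF9 and for TNFSF13B with TNFRSF13C. For CD30 the ligand gene TNFSF8 had a joint site and the receptor gene TNFRSF8, with 12 SKI sites, had no shared one. For GITR the receptor gene TNFRSF18 had a joint site and the ligand gene TNFSF18 had neither.

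Neighbouring members differed as well. The closest listed TSSs of TNFRSF8 and TNFRSF1B lie 41105 bp apart on chromosome 1, with 12 SKI sites of which none was shared at the former and 9 of which 2 were shared at the latter. These counts rest on the nearest listed transcript. The intergenic shared site of TNFRSF1B, centred 16452 bp upstream, lies between the TSSs of both genes. On chromosome 8, TNFRSF10B, TNFRSF10C and TNFRSF10D had 1, 1 and 0 shared sites and 0, 2 and 0 RUNX1 peaks. On chromosome 1, which holds 10 of the 34 members, 4 of the 9 joint sites were found. The share of the joint sites of other genes on that chromosome is not given here, so no clustering can be read from this count.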
